A study of Mus musculus with 23 samples.

Results

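A set of 10 genes of the Notch pathway was followed through 23 RNA-seq libraries of mouse olfactory epithelium: the ligands Jag1 and Dll1, the receptors Notch1, Notch2 and Notch3, the nuclear coactivator Maml3, the transcription factors Hes1 and Hes6, and the transcription factors Sox2 and Sox9. They were listed by name, with earlier results of these data known, and all 10 were found among the 23481 gene symbols of each deposited count file. The list sets no threshold, but its genes were selected on these same libraries, so their levels and fold changes are given as a description and without p-values. The libraries were made from RNA bound to ribosomes that carry phosphorylated S6 (pS6), a ribosomal protein modified in neurons after activity, which were captured with a pS6 antibody. All mice were C57BL/6 at postnatal day 21 and were exposed for 1 h. The acetophenone experiment had 5 control libraries (litters 1 to 5), 3 libraries with 1% acetophenone (litters 3 to 5) and 3 with 100% acetophenone (litters 1 to 3). The TMT experiment had 4 control libraries, 4 with 1% TMT (trimethylthiazoline, a compound of fox scent) and 4 with 100% TMT, 1 of each per litter. The labels name no number of animals per library and do not describe the control exposure further. Neither deposited labels nor protocols place a gate on cell type, so each library is a bulk sample of the tissue as far as it binds the antibody.

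Notch signalling runs between touching cells. A ligand such as Jag1 or Dll1 on one cell binds a Notch receptor on the next, the receptor is cut inside its membrane, and the freed intracellular part joins the DNA-binding protein Rbpj and a Mastermind coactivator such as Maml3 to switch on Hes and Hey genes. Hes1 represses proneural factors and keeps progenitors undifferentiated, while Hes6 is made by cells on the way to becoming neurons and counteracts Hes1 in mouse neural cells. In the olfactory epithelium Sox2 marks sustentacular and basal cells, and Sox9 marks Bowman glands, the ducted glands that secrete the nasal mucus.

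In the GENCODE M21 annotation of GRCm38, the assembly of the mm10 build that the submitters' processing notes name, Hes6 lies on chr1:91411483-91414038 (minus strand), Dll1 on chr17:15367354-15376872 (minus), Notch2 on chr3:98013527-98150361 (plus), Maml3 on chr3:51685907-52105076 (minus), Sox2 on chr3:34650405-34652461 (plus) and Sox9 on chr11:112782224-112787760 (plus). Counts are over whole genes and do not separate exons or isoforms.

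The promoters of the genes with the clearest patterns below are shown first. Promoter entries of the RefSeq annotation (GRCm38.p6) were matched by symbol for 8 of the 10 genes, with 10 windows in all, since Hes6 and Dll1 have a pair of start sites each. The 250 bases before each start were searched on both strands for TGGGAA (the core bound by Rbpj), CAGCTG (an E-box, bound by proneural factors) and CACNAG (an N-box, bound by Hes proteins). The motifs were also counted in all 32851 such windows. Printed are both starts of Hes6, which was lower with 100% TMT, and those of Notch2 and Maml3, which had almost no reads with 1% TMT. Sequences run 5′ to 3′ on the strand of the gene, and capitals mark motif matches.
Hes6, first start, chr1:91414039-91414288, minus strand: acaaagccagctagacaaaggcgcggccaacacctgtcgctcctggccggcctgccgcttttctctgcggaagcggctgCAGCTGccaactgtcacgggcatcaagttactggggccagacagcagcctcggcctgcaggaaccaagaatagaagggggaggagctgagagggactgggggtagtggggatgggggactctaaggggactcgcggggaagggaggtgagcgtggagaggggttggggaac
Hes6, second start, chr1:91413223-91413472, minus strand: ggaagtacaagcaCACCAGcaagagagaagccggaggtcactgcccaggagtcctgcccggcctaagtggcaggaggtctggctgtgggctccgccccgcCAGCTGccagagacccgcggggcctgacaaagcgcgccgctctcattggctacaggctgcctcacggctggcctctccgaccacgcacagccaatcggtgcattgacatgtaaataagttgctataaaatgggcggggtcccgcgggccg
Notch2, chr3:98013288-98013537, plus strand: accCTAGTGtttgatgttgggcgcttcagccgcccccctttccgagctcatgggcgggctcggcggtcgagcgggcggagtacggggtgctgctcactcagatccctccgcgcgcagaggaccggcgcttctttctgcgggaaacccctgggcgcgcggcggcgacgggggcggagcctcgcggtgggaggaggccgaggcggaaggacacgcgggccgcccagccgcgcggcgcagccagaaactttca
Maml3, chr3:52105007-52105256, minus strand: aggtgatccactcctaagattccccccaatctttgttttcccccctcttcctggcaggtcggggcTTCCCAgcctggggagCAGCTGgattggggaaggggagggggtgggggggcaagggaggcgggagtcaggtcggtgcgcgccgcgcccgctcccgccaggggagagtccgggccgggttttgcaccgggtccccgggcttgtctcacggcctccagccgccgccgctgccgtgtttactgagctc
Both Hes6 windows hold CAGCTG, at bases 80 and 101, and the window of the second start also holds an N-box at base 14. CAGCTG was in 13.0% of all windows and in those of 4 of the 8 matched genes (Jag1, Dll1, Maml3 and Hes6). The N-box was in 36.7% of all windows and in those of Notch1, Notch2, Notch3 and Hes6. TGGGAA was in 21.6% of all windows and, of the 8 genes, in that of Maml3, on the minus strand of the printed sequence. The letters describe the windows and do not show binding.

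Unique reads counted on genes summed to 2118099 to 9526932 per library, and levels are given as CPM (counts relative to library size, with TMM scaling between libraries). Marker genes of several cell types were present in every group. Summed over their lists, mature neuron markers ranged from 1785 to 7183 CPM, sustentacular cell markers from 3576 to 8859 CPM and fibroblast markers from 5691 to 23290 CPM, the last of cells that lie below the epithelium. Libraries of litters 2 and 3 of the acetophenone experiment, whose titles carry the code YJ, stood apart from the other 6 of that experiment. Their ensheathing glia marker sum was 141 to 391 CPM, against 1094 to 1741 CPM in the others, and their endothelium sum was 26.7 to 49.98 CPM, against 84.9 to 123 CPM. Of the endothelial markers, Cdh5 was at 0 in 14 of the 23 libraries, Kdr in 6, Tek and Emcn in 3 each and Cldn5 in 2. Of the glial markers, Sox10 was at 0 in 1. Apoe had the highest mean of the glia list, 816 CPM over all libraries, and Cldn5 that of the endothelium list, 52.3 CPM. Across 10727 genes, the log2 difference between these 5 libraries and the other 6 was lower for transcripts of higher GC content (Spearman rho = -0.56 across genes, which are not independent replicates), with a median of -1.33 for the 508 genes above 60% GC. Code and litter cannot be told apart.

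The 10 genes covered a wide range of levels. Per kilobase of the longest protein-coding transcript, Hes6 stood far above the rest in TMT controls, at 576 ± 18.4 CPM per kb (SD, n = 4). Sox9 with 10.4 ± 4.65, Sox2 with 9.62 ± 4.59 and Hes1 with 7.90 ± 2.91 CPM per kb came next and did not differ beyond their spread. Notch1 (0.727 ± 0.350), Dll1 (0.496 ± 0.355), Maml3 (0.476 ± 0.347), Notch3 (0.431 ± 0.305), Jag1 (0.236 ± 0.296) and Notch2 (0.206 ± 0.0606) followed in that order, each within the spread of its neighbour. In acetophenone controls the same 4 genes led, with Hes6 at 212 ± 121 CPM per kb (SD, n = 5). There Jag1 had 2.09 ± 1.40 and Notch3 1.76 ± 0.199 CPM per kb, Notch1 1.13 ± 0.303, so that Notch3 but not Jag1 was above Notch1 by more than the spread, and Notch2 was lowest with 0.153 ± 0.169. Reads with several alignments are left out of these counts, so levels between genes also depend on how much of each transcript is unique.

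**Figure D1:**
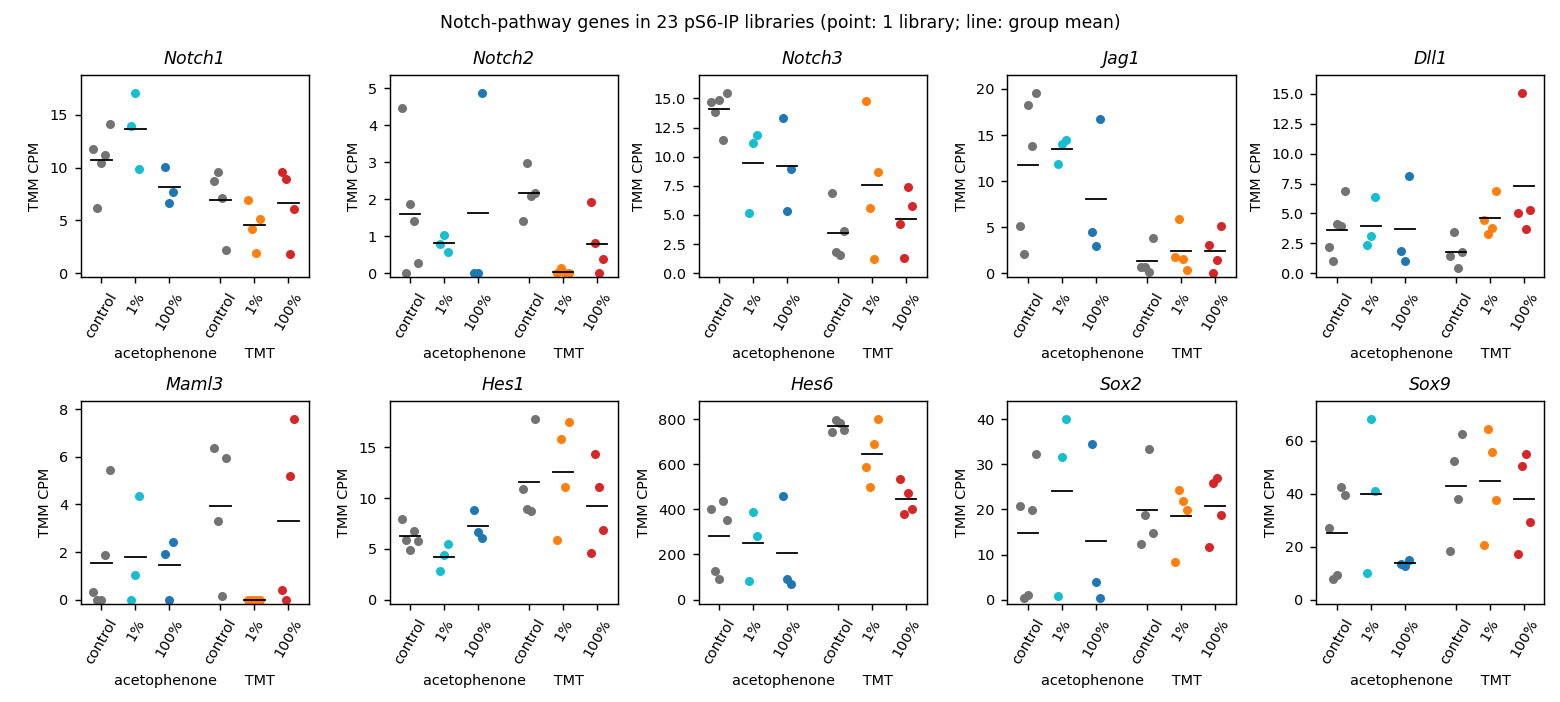
TMM-scaled CPM (vertical axis, linear, a scale per gene) of the 10 genes in each of the 23 libraries, by group from control to 1% to 100% for acetophenone on the left and TMT on the right of each panel. Points are libraries in the order of their litters and lines are group means. Hes6 separates 100% TMT (378 to 534 CPM) from TMT controls (744 to 795 CPM), and Sox2 and Hes6 split the acetophenone libraries by litter.

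Hes6 was the member with the clearest difference. It had 534, 378, 474 and 403 CPM with 100% TMT in litters 1 to 4, against 744, 795, 784 and 752 CPM in their controls. The groups did not overlap, and the level was lower in 4 of 4 litters, 1 of them with title code YJA and 3 with YJG. In edgeR's quasi-likelihood fit without a litter term the log2 fold change was -0.75 (SE 0.17), and with litter as a block it was -0.77 (SE 0.16). With 1% TMT, Hes6 had 589, 501, 688 and 801 CPM, lower than control in litters 1 to 3 and higher in litter 4 (log2 fold change -0.25, SE 0.17). The 100% dose was below the 1% dose in 4 of 4 litters (log2 fold change -0.50, SE 0.17).

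Other measures also differed between 100% TMT and control, some of them at 1% TMT as well. In bulk pS6 captures, fewer cells of a type, less RNA per cell and less capture of their ribosomes cannot be told apart. Immature neuron markers summed to 1283 to 2109 CPM with 100% TMT and to 1937 to 2894 CPM in controls, lower in 4 of 4 litters. None of the 7 immature neuron markers was at 0 in any library, 6 of them had negative fold changes, with a list median of -0.61 beside 0.02 over all genes tested, and 1 of them, the neuronal tubulin Tubb3, passed the edgeR test with litter as a block (log2 fold change -1.10, SE 0.13, adjusted p = 0.00603). Globose basal cell markers, those of neuronal progenitors, had a summed level of 70.8 to 148 CPM with 100% TMT and of 53.0 to 107 CPM in controls, higher in 4 of 4 litters, although 4 of 6 tested markers had negative fold changes. Mature neuron markers were positive in 7 of 7, and their sum was 3187 to 4183 CPM with 100% TMT and 1785 to 4074 CPM in controls, higher in 4 of 4 litters, as was the sustentacular sum with 4866 to 5487 CPM against 3577 to 4534 CPM. The ensheathing glia sum was 746 to 823 CPM with 100% TMT and 1124 to 1342 CPM in controls, lower in 4 of 4 litters, with 3 of 6 markers positive, and its marker Apoe passed the test (log2 fold change -0.81, SE 0.13, edgeR adjusted p = 0.0196). With 1% TMT, where Hes6 was lower in 3 of 4 litters, mature neuron markers were again positive in 7 of 7 (median 0.37, beside 0.38 at 100%). The globose basal sum was higher in 4 of 4 litters at 1%, with 4 of 6 tested markers positive. The ensheathing glia sum was lower in 4 of 4 litters at 1%, although 4 of its 6 markers were positive (list median 0.29). The immature neuron sum was lower in 3 of 4 there (list median -0.35), and the sustentacular sum was higher in 2 of 4. Over all genes, the fold change with 100% TMT fell with GC content (Spearman rho = -0.45 across 13115 genes). The Hes6 transcript has 60.3% GC, and after a correction for GC content and length its log2 fold change was -0.37 (SE 0.14). The corrected value was -0.10 (SE 0.14) for 1% TMT over control and -0.26 (SE 0.14) for 100% TMT over 1% TMT. The parts of cell numbers and of pS6 capture in the result were not tested.

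**Figure D2:**
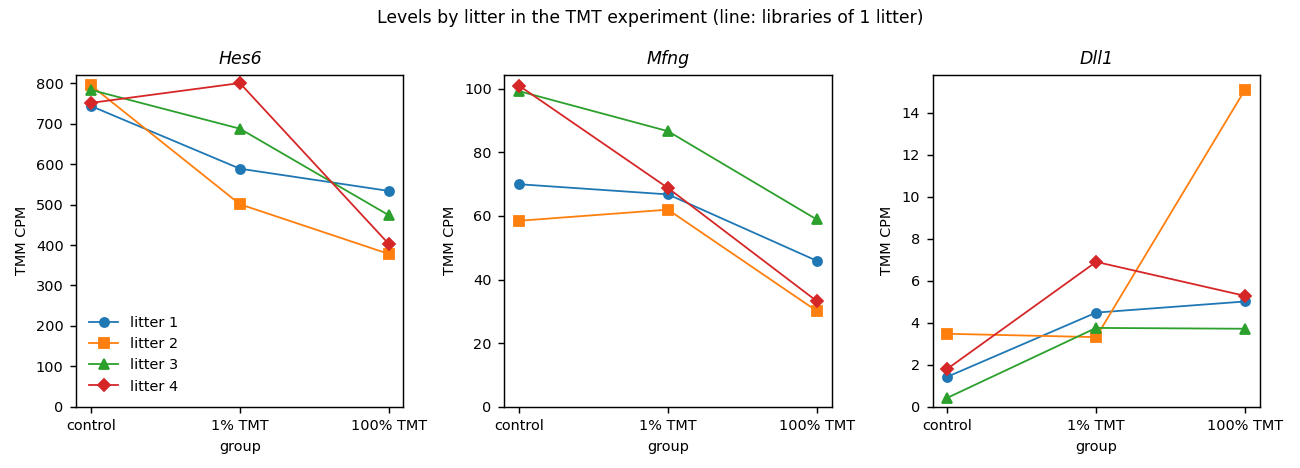
TMM-scaled CPM (vertical axes, linear, from 0) of Hes6, Mfng and Dll1 in control, 1% TMT and 100% TMT libraries, with a line for each of the 4 litters. Hes6 and Mfng are lowest with 100% TMT in every litter, and Dll1 is above its control in every litter with 100% TMT.

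Among the ligands, Dll1, which is carried by committing progenitors, had 5.01, 15.1, 3.71 and 5.28 CPM with 100% TMT in litters 1 to 4, against 1.42, 3.47, 0.417 and 1.80 CPM in controls. The groups did not overlap, and the level was higher in 4 of 4 litters (log2 fold change 2.05, SE 0.73). These values rest on few reads, 10 to 93 per library with 100% TMT and 3 to 21 in controls. With 1% TMT, Dll1 had 4.48, 3.31, 3.75 and 6.90 CPM, above control in litters 1, 3 and 4 (log2 fold change 1.38, SE 0.72). Against acetophenone controls it had 2.38, 3.12 and 6.39 CPM with the 1% dose in litters 3 to 5, where controls had 4.10, 3.97 and 6.90 CPM, a log2 fold change of -0.29 (SE 0.58). With 100% acetophenone it had 1.90, 1.00 and 8.13 CPM in litters 1 to 3, against 2.23, 1.04 and 4.10 CPM in controls.

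Jag1, the other ligand, differed more between litters than with odor. With 100% acetophenone it had 4.43, 3.0 and 16.7 CPM in litters 1 to 3, against 5.10, 2.07 and 18.3 CPM in controls of the same litters. With 1% acetophenone it had 11.9, 14.0 and 14.5 CPM in litters 3 to 5, against 18.3, 13.8 and 19.6 CPM in controls. Litters 3 to 5 were all above litters 1 and 2, whatever the exposure. In the TMT experiment Jag1 was at 0.0 to 5.15 CPM with 100% TMT, at 0.323 to 5.91 CPM with 1% TMT and at 0.139 to 3.78 CPM in controls, and the groups overlapped.

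Of the receptors, Notch2 and, beyond them, the coactivator Maml3 were nearly without reads with 1% TMT. Notch2 had 0, 1, 0 and 0 counts with 1% TMT in litters 1 to 4, against 6, 18, 15 and 12 counts in controls, so the groups did not overlap. The ratio of its share of counts, 1% TMT over control, was 0.0165 (exact 95% interval 0.00041 to 0.0962). With 100% TMT it had 5, 5, 0 and 3 counts, and its CPM overlapped those of both other groups (log2 fold change against control -1.45, SE 1.14). Maml3 had 0 counts in all 4 libraries with 1% TMT, against 27, 20, 1 and 33 counts in controls. Set against the 3 counts over the group that a count of 0 allows, the level with 1% TMT was at least 32.1-fold lower. With 100% TMT, Maml3 had 1, 0, 14 and 59 counts, which spans the whole range of the controls. In the acetophenone experiment 3 of 11 libraries had no read of Notch2 and 4 had none of Maml3, controls among them, and neither had enough counts for the fit. Reads of PCR-amplified cDNA are not independent molecules, so the interval and the floor cover counting error alone.

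**Figure D3:**
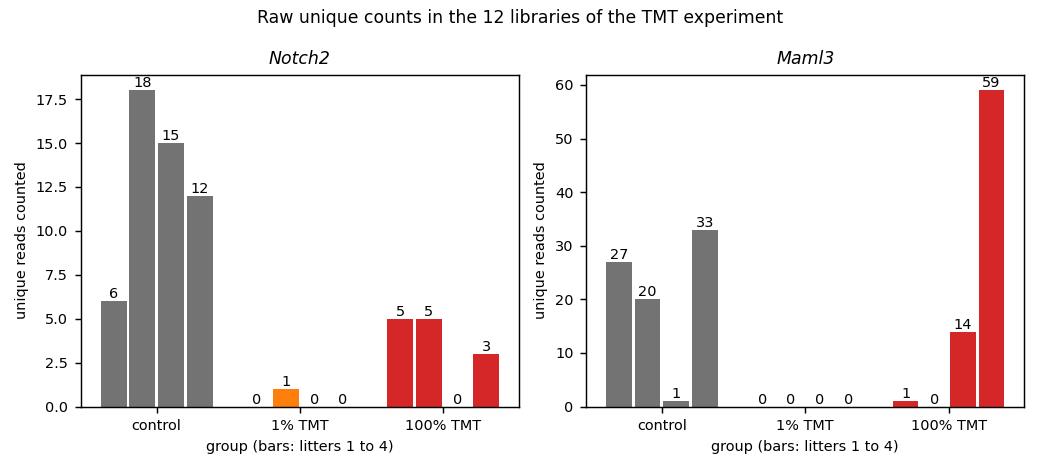
Raw counts of unique reads (vertical axes, linear) of Notch2 and Maml3 in control, 1% TMT and 100% TMT libraries, with 1 bar per litter in the order 1 to 4 and the count above it. Notch2 has 1 read and Maml3 none in the 4 libraries with 1% TMT.

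Notch3, a receptor best known from pericytes and vascular smooth muscle, was lower with acetophenone in every litter. It had 13.3, 5.33 and 8.95 CPM with 100% acetophenone in litters 1 to 3, against 14.7, 13.8 and 14.9 CPM in controls, and these groups did not overlap (log2 fold change -0.63, SE 0.52). With 1% acetophenone it had 5.16, 11.2 and 11.9 CPM in litters 3 to 5, against 14.9, 11.4 and 15.5 CPM in controls (log2 fold change -0.54, SE 0.45). The values of litter 4 lay close together, and both comparisons share the control of litter 3. The pericyte and smooth muscle marker sum was lower in 2 of 3 litters at each dose, with list medians of -0.51 at 100% and -0.12 at 1%. At 100% acetophenone the endothelium and ensheathing glia sums were lower in 3 of 3 litters, with 0 of 3 and 0 of 5 tested markers positive and medians of -0.43 and -0.70, and at 1% each was lower in 2 of 3 litters. Their part in the Notch3 values was not tested. With TMT the direction was not the same in all litters. Notch3 had 4.24, 1.30, 7.41 and 5.79 CPM with 100% TMT, 14.8, 5.62, 1.21 and 8.73 CPM with 1% TMT, and 6.86, 1.82, 1.53 and 3.6 CPM in controls.

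Notch1, a receptor found on basal cells, did not separate any group. It was at 6.67 to 10.1 CPM with 100% acetophenone and at 6.22 to 11.8 CPM in controls of the same litters, and at 9.88 to 17.1 CPM with 1% acetophenone and 10.4 to 14.1 CPM in controls. With TMT it was at 1.85 to 9.63 CPM at the 100% dose, at 1.94 to 6.89 CPM at the 1% dose and at 2.16 to 9.58 CPM in controls. The fitted log2 fold changes over control ran from -0.60 (SE 0.65) with 1% TMT to 0.21 (SE 0.38) with 1% acetophenone, and that of 100% TMT over 1% TMT was 0.57 (SE 0.65).

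Hes1, the classical target of the pathway, had 2.78, 4.42 and 5.52 CPM with 1% acetophenone, against 4.85, 6.77 and 5.75 CPM in controls of litters 3 to 5, lower in 3 of 3 litters (log2 fold change -0.42, SE 0.47). With 100% acetophenone it had 8.87, 6.67 and 6.10 CPM, against 7.97, 5.88 and 4.85 CPM in controls, higher in 3 of 3 litters (log2 fold change 0.21, SE 0.53). Both differences were smaller than 1 SE of the fit, on 7 to 29 counts per library. With TMT it had 4.62, 14.3, 11.1 and 6.82 CPM at the 100% dose, below the 5.86, 15.8, 11.1 and 17.5 CPM of the 1% dose in 4 of 4 litters, although litter 3 shows no difference at the digits given. Controls had 10.9, 8.92, 8.76 and 17.8 CPM. The Pearson correlation of log2(CPM + 1) between Hes1 and Hes6 was 0.60 over the 23 libraries and 0.18 over the 12 TMT libraries, given as a description of libraries that share litters.

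In the acetophenone experiment Sox2 and Sox9 varied with litter far more than with odor. In the 5 libraries with code YJ, Sox2 was at 0.346 to 4.0 CPM, against 19.8 to 40.1 CPM in the other 6 acetophenone libraries, and the ranges did not overlap. Hes6 was likewise at 68.7 to 126 CPM in the YJ libraries and at 283 to 458 CPM in the other 6. Sox9 was at 7.60 to 15.0 CPM in the YJ libraries and at 13.3 to 68.3 CPM in the others. The log2 difference, YJ minus other libraries, was -3.72 for Sox2, whose transcript has 50.5% GC, while the median over the 2812 genes with 50 to 55% GC was -0.10. It was -1.74 for Sox9, with 49.3% GC, beside a median of 0.25 over the 2766 genes with 45 to 50% GC. It was -2.05 for Hes6, beside the median of -1.33 above 60% GC. What sets these litters apart was not tested. The other members with a mean of at least 5 CPM, Notch1, Notch3, Jag1 and Hes1, differed by -0.42 to -0.18. Among the other genes of the pathway, the Notch effector Hey1 was at 6.71 to 10.2 CPM in litters 2 and 3 and at 52.6 to 113 CPM in litters 1, 4 and 5, and the ligand-activating ubiquitin ligase Mib2 had 0.0 to 8.0 CPM and 78.4 to 126 CPM in those litters.

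**Figure D4:**
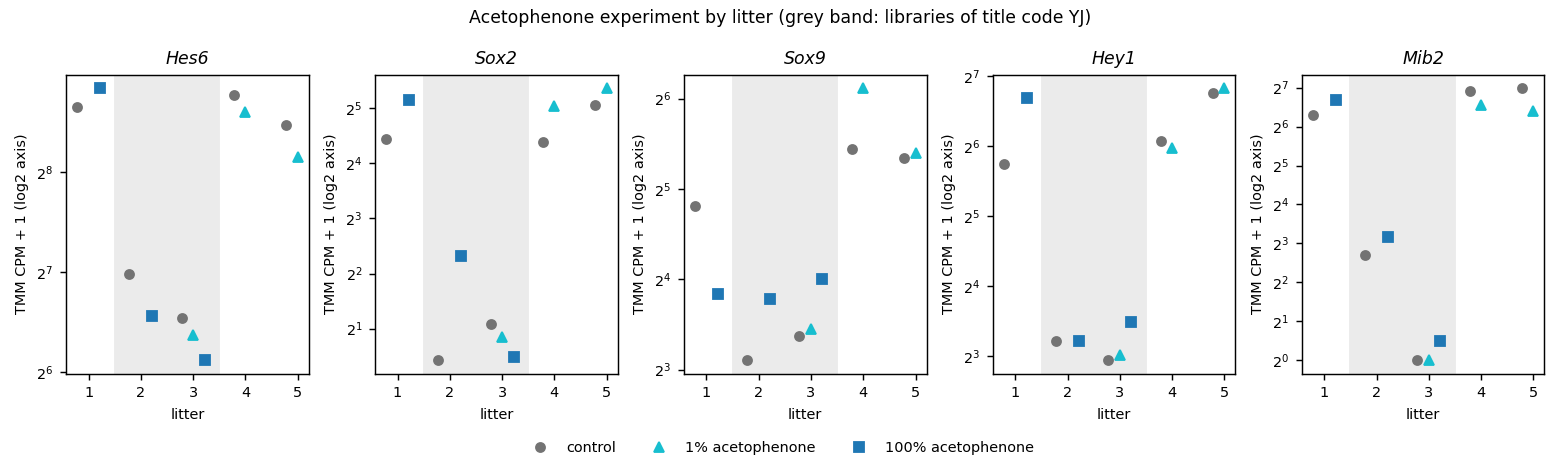
TMM-scaled CPM plus 1 (vertical axes, log2) of Hes6, Sox2, Sox9, Hey1 and Mib2 by litter in the 11 libraries of the acetophenone experiment, with a symbol per group and a grey band over litters 2 and 3, whose titles carry the code YJ. The banded litters are lowest in all exposures for Hes6, Sox2, Hey1 and Mib2.

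The ranges of odor and control libraries overlapped for both Sox genes in every comparison. Sox2 had 34.5, 4.0 and 0.407 CPM with 100% acetophenone in litters 1 to 3, against 20.7, 0.346 and 1.12 CPM in controls, and 0.794, 31.7 and 40.1 CPM with 1% acetophenone in litters 3 to 5, against 1.12, 19.8 and 32.2 CPM in controls. In litters 2 and 3 these levels are 1 to 12 reads. Outside them Sox2 was higher with acetophenone in all 3 pairs of libraries. Sox9 with 1% acetophenone had 9.93, 68.3 and 41.2 CPM, against 9.33, 42.5 and 39.7 CPM in controls, higher in 3 of 3 litters (log2 fold change 0.40, SE 0.79, and 0.34, SE 0.21, with litter as a block). With 100% acetophenone Sox9 had 13.3, 12.7 and 15.0 CPM, against 27.1, 7.60 and 9.33 CPM in controls. With TMT, Sox2 had 11.6 to 27.0 CPM at the 100% dose, 8.27 to 24.3 CPM at the 1% dose and 12.3 to 33.4 CPM in controls. Sox9 had 17.3 to 55.2, 20.7 to 64.4 and 18.2 to 62.5 CPM in those groups. Summed Bowman gland markers were 13800 to 20520 CPM with 100% TMT and 9253 to 14620 CPM in controls, higher in 4 of 4 litters. Sox9 was lower in 3 of 4 (log2 fold change -0.14, SE 0.44). Its values lay close together in litters 1 and 2, with 17.3 against 18.2 CPM and 50.4 against 52.5 CPM. In litters 3 and 4 they were 55.2 against 38.1 CPM and 29.5 against 62.5 CPM.

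**Figure D5:**
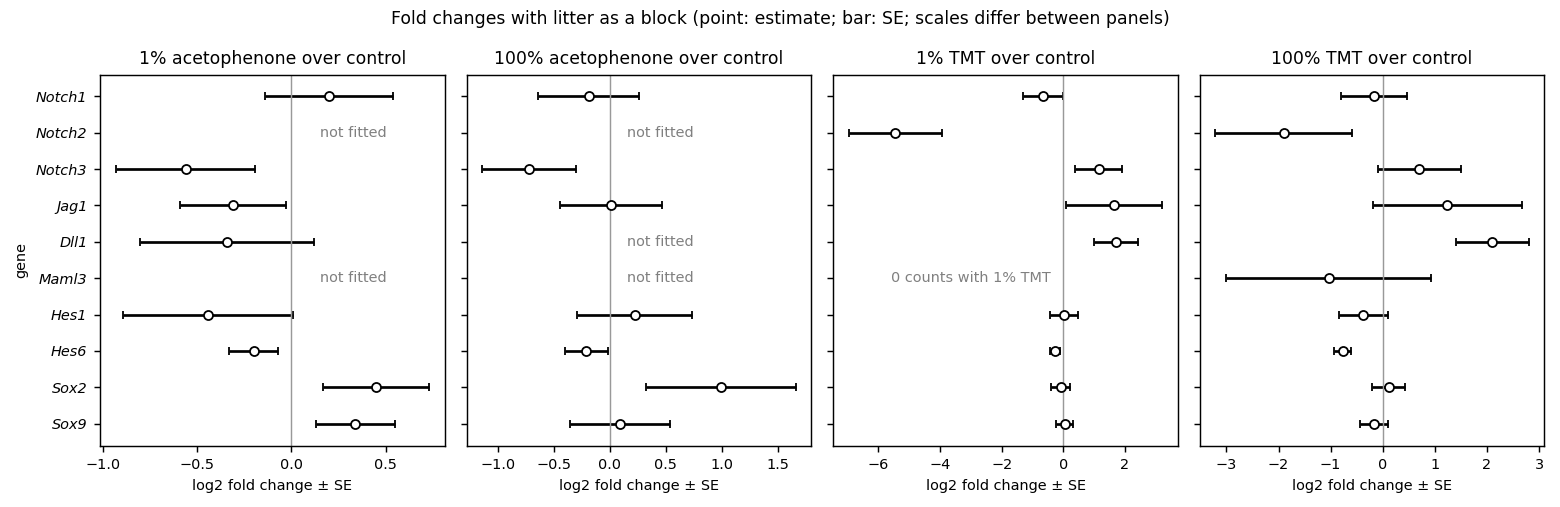
Log2 fold changes over same-litter controls (horizontal axes, a scale per panel) of the 10 genes, fitted by edgeR with litter as a block, with bars of 1 SE. Genes with too few counts to enter the fit are named as not fitted. The fitted value of Maml3 with 1% TMT is not drawn, because all 4 libraries were at 0. Hes6 with 100% TMT has the estimate farthest from 0 in units of its SE.

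Calls over all genes were few in every comparison but that of 100% TMT with control. Without a litter term, edgeR called 0 members (adjusted p under 0.05) in each of the 5 comparisons, in which it called 0.0% of 11564 to 13233 genes. At an unadjusted p under 0.05 that edgeR fit held 61 genes with 100% acetophenone, 93 with 1% acetophenone, 1944 with 100% TMT, 568 with 1% TMT and 697 between the TMT doses, and DESeq2 called 5, 1, 463, 4 and 18 genes in these comparisons. With litter as a block, 1 of the 10 members was called with 100% TMT against same-litter controls, Hes6, which was lower. In that fit 314 of 13233 genes (2.37%) were called, 244 of them higher and 70 (0.529%) lower, and after the GC and length correction 74 were called higher and 74 lower. With the block, 0 of 7 members tested were called with 100% acetophenone, where 0.0951% of all genes were, 0 of 8 with 1% acetophenone (0.00828% of all genes), 0 of 10 with 1% TMT (0.00756%), and 0 of 10 between the TMT doses (0.0%). Since the genes were chosen with these contrasts known, nothing is read from the members' counts. The Hes6 call was lost after the GC and length correction, without litter 2, 3 or 4, and in a fit of those 2 groups alone. Its log2 fold change was -0.67, -0.79 and -0.75 without litter 2, 3 and 4, and -0.75 with those 2 groups. Calls over all genes fell as well, to 1, 0 and 17 without these litters and to 29 with those 2 groups.

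The rest of the pathway was described through 57 further genes, of which 45 had enough counts in the TMT experiment. With 100% TMT and the block 18 had positive and 27 negative fold changes, with a median of -0.11 beside 0.02 over all genes. Of the 45, 1 passed the test, where 314 of 13233 genes (2.37%) did, so nothing is read from this count. The GC and length correction turned the balance of directions, to 26 positive and 19 negative with a median of 0.09 beside -0.02. The gene that passed was Mfng, a fringe enzyme that adds sugar to Notch receptors and so tunes which ligand they answer. It had 45.9, 30.1, 58.9 and 33.2 CPM with 100% TMT, against 70.0, 58.5, 99.3 and 101 CPM in controls, lower in 4 of 4 litters (log2 fold change -0.96, SE 0.21, edgeR adjusted p = 0.0401 with the block and 0.168 without). The ranges overlapped, with a highest value of 58.9 CPM with 100% TMT and a lowest of 58.5 CPM in controls. After the GC and length correction the value was -0.65 (SE 0.21, edgeR adjusted p = 0.144). The call was also lost in a block fit of those 2 groups alone (edgeR adjusted p = 0.108) and without any 1 of the 4 litters (edgeR adjusted p = 0.0685 to 0.161). The next gene, Hey2, a Hes-related target of Notch, had 9.25, 1.94, 6.67 and 6.44 CPM with 100% TMT, against 23.6, 8.26, 21.4 and 15.0 CPM in controls, and missed the test with the block (log2 fold change -1.50, SE 0.44, edgeR adjusted p = 0.0906), also after the correction (-2.04, SE 0.45, edgeR adjusted p = 0.0545). The lists within the pathway did not share a direction. Of the 6 tested genes of receptor cleavage 5 had positive fold changes, with a median of 0.50 (0.27 after the correction), while 4 of 5 Notch targets and 5 of 6 ligands had negative ones, with medians of -0.57 (-0.37) and -0.31 (-0.10). The nuclear complex had 4 positive and 6 negative values, and 9 positive and 1 negative after the correction. All 4 proneural factors had negative values, with a median of -0.43 (-0.60). They were also negative in 4 of 4 between the TMT doses, but with 1% TMT 3 were positive and 1 negative. None of the genes of these lists passed the test.

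In the other comparisons 0 of the further pathway genes passed the edgeR test with or without the block, and DESeq2 called 0. With the block, 0, 1, 3 and 4 of them had an unadjusted p under 0.05 with 100% acetophenone, 1% acetophenone, 1% TMT and between the TMT doses, where 5.27, 8.51, 7.16 and 8.07% of all genes tested did. With 100% acetophenone 37 were tested, with a median of 0.16 beside 0.01 over all genes, and the smallest p-values were those of Hey1 (log2 fold change 0.59, SE 0.30, edgeR adjusted p = 0.897 with the block) and of Fbxw7, which marks Notch for degradation (0.33, SE 0.19, edgeR adjusted p = 0.897). With 1% acetophenone 39 were tested, with a median of -0.05 (18 positive, 21 negative) beside 0.01 over all genes, and of 0.05 (25 positive, 14 negative) beside -0.01 after the GC and length correction. Spen, a corepressor partner of Rbpj, had 20.6, 27.8 and 33.7 CPM, against 43.3, 48.1 and 49.8 CPM in controls. Its groups did not overlap, but it missed the test (log2 fold change -0.77, SE 0.19, edgeR adjusted p = 0.393), and the corrected value was -0.42 (SE 0.20). For Mib2 the value was -0.45 (SE 0.19, edgeR adjusted p = 0.589) and -0.23 (SE 0.19) with the correction. With 1% TMT 45 were tested, with a median of 0.15 beside 0.03 over all genes. Dll4, a ligand known from the tip cells of growing vessels, had 9, 13, 40 and 59 counts, against 0, 0, 23 and 0 counts in controls, higher in 4 of 4 litters (edgeR adjusted p = 0.694 with the block). For Dtx3, of the Deltex family that acts on Notch trafficking, the log2 fold change was -0.34 (SE 0.14, edgeR adjusted p = 0.694) and -0.18 (SE 0.14) with the correction. Between the TMT doses the median of the 45 was -0.11 beside 0.01 over all genes. Hey2 (-1.83, SE 0.45, edgeR adjusted p = 0.468) and Mfng (-0.77, SE 0.21, edgeR adjusted p = 0.472) were lower with 100% TMT than with 1% TMT in 4 of 4 litters, and the groups of each did not overlap. Rbpj itself could not be followed, since unique reads gave it 3 counts over all libraries while counts that include reads with several alignments gave 199. The same was true of Psenen (17 against 19000 counts) and Aph1a (6 against 7596). Both belong to the receptor cleavage list but are not among its tested genes.

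Genes with the most similar pattern were sought for the 7 members with a mean of at least 5 CPM, as Pearson correlations of log2(CPM + 1) over the 23 libraries among 10641 genes. For Hes6 these were Gm1673, Dut and Foxo6, each with r = 0.98. Over the 12 TMT libraries alone, where code YJ is absent, their r were 0.80, 0.76 and 0.87. Sox2 was closest to Mtss1l, Ier2 and Cdk5r2, each with r = 0.95 over 23 and 0.66 to 0.83 over the 12 libraries, and Sox9 to Psmd3, Vps26b and Ormdl3 (r = 0.88 to 0.90). Jag1 was closest to Fry, Aldh6a1 and Ank2 (r = 0.86 to 0.89), of which Ank2 had r = 0.36 in the TMT libraries. Notch3 was closest to Dab2, Olfr1364 and Kat2b (r = 0.82 to 0.86), Hes1 to Naa10, Sharpin and Cuedc2 (r = 0.82 to 0.83), and Notch1 to Ghdc, Pigq and 4931406P16Rik (r = 0.79 to 0.80). Among the members themselves, Hes6 and Sox2 had r = 0.80 over the 23 libraries and -0.14 over the 12 TMT libraries, whereas Sox2 and Sox9 had 0.78 and 0.69. The libraries share litters and title codes, so these values describe likeness and carry no p-value.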

How the data were processed

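RNA pulled down with a pS6 antibody from mouse olfactory epithelium was sequenced in 23 libraries, made with a transposon-based kit from amplified cDNA per the labels' protocols. Bowtie, bedtools and mm10 are named, without versions, in the submitters' processing notes, and no gene annotation is. Deposited files list 23481 genes in 20 value columns each, with no header. The first column deposited by the authors holds whole-number raw counts, read here as counts of uniquely aligned reads, and the last holds estimated counts that also share out reads with several alignments. This reading rests on the values, since no column falls below its neighbour to the left. Rounded, the estimated counts served as an alternative. Unique reads were 51.2 to 71.9% of the estimated counts.

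Calls were made with edgeR 4.0.16 in R 4.3.3 (TMM scaling, filterByExpr with a minimum count of 10, quasi-likelihood test, Benjamini-Hochberg adjustment over all genes tested, threshold 0.05), fitted on all genes. Acetophenone doses were each fitted with same-litter controls and the TMT groups in 1 fit, giving 5 comparisons. Alternatives were litter as a block, DESeq2 1.42.0 (as scaling and as test), no filter, estimated counts, the block with a GC content and length correction, and each library or litter left out. GC content and length came from the longest protein-coding GENCODE transcript and were known for 99.1% of genes tested. The fits were tested on simulated data. The labels give the litters, so litter numbers pair the libraries. Deviations of same-litter libraries correlated at 0.66 to 0.92 in the acetophenone comparisons and at -0.03 to 0.52 in the TMT comparisons. Deviations were taken from each gene's mean over the litters of a group, so a positive own-litter value by itself pulls the other correlations down. The highest correlation with another litter was below the own-litter value in every acetophenone pair, which is in part built in. In some TMT pairs of litters 3 and 4 it was above. For litter 3 with 1% TMT and control it was 0.244 beside 0.0847, and for litter 4 between the doses 0.358 beside -0.03. Whether libraries of a litter came from separate animals is not stated, so errors measure the spread between these libraries, and all intervals cover counting error alone.

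The members, the pathway list and the marker lists were chosen with earlier results of these data known. Named besides the members were pathway genes that passed the test with or without the block, in each comparison the 2 with the smallest p with the block, and the 3 genes most like each member with a mean of at least 5 CPM. The pseudocount for likeness was 1. Figures were drawn with matplotlib 3.10.9.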

Additional observations from a re-analysis of the deposited data

Results flagged for a closer look

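Of 39 groups of 4 or 5 libraries checked, 1 group per member and condition, 3 held a library far from the others of its group, where chance gives about 1 in 20. Dll1 with 100% TMT was at 15.1 CPM in litter 2, far above the other 3 libraries of the group, and without it the log2 fold change against control was 1.43 instead of 2.05. Jag1 in TMT controls was at 3.78 CPM in litter 4, above the other 3 controls. Notch2 with 1% TMT was at 0.144 CPM in litter 2, which is 1 read where the other 3 libraries had none.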

How the results depend on the processing

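Of 174 counts of calls under the alternatives, 167 were the same as in the fit without a litter term, which were all 0. Most of these alternatives called few or no genes over all genes tested. Most of this sameness was therefore set in advance, and nothing on the members is read from it. With litter as a replicate block, and likewise with DESeq2, 1 member (Hes6) and 1 further pathway gene (Mfng) were called with 100% TMT against same-litter controls, and the block changed no other count of member or pathway calls. Leaving out 1 library or litter gave 0 to 1 member with 100% TMT, the 1 being Hes6 with the block and without litter 1. It gave 0 to 1 further pathway gene with 100% acetophenone, which was Dlk1, named here after its values were seen, with the block and without litter 2 (log2 fold change -4.75) or litter 3 (-4.79). With all 3 litters Dlk1 did not pass the filter. Its same-litter controls had 59.1 ± 99.0 CPM (SD, n = 3), a spread above the mean. A single library held 544 of its 752 counts over the 23 libraries. Over all genes, calls with 100% TMT were 0 without the block, 314 with it, 463 by DESeq2, 29 in a block fit of those 2 groups alone, and 148 with the GC and length correction, 74 of them higher. Of the 45 fitted member fold changes, 22 kept their direction under every alternative. Over 19 alternatives Hes6 with 100% TMT lay between -0.89 and -0.37 and Mfng between -1.16 and -0.65. The cause of the lost calls was not tested. Notch2 had at most 18 reads in a library, and 7 of 23 libraries had none, while Maml3 had none in 9, so depth limits the statements on both.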
